A study of Mus musculus with 90 samples.

Results

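The immediate early genes described here are Fos, Fosb, Jun, Junb, Egr1, Ier2, Atf3, Nr4a1, Nr4a3 and Dusp1, 10 of the 17097 genes measured in mouse lung. They were chosen by symbol from probe sets (groups of short probes for 1 transcript) that the array annotation assigns to a single gene. The 10 genes have 13 probe sets, and each gene is given by its brightest probe set over 90 arrays, with all 3 probe sets shown for Nr4a3. Whole lungs of 90 adult male C57BL/6 mice were profiled, 1 array per animal, in 18 groups of 5. The strains were a CYP2F2(-/-) knockout (KO), a transgenic strain labelled CYP2F2(-/-),2F1,SA13,2B6 (TG), which also lacks the mouse gene and carries human cytochrome P450 genes, and wild type (WT). Mice of each strain were caged singly in wire mesh and inhaled styrene at 0 (air only), 40 or 120 ppm, with 6 h of exposure on each of 5 days per week. Exposure lasted 1 or 4 weeks, and the animals were killed with sodium pentobarbital and exsanguinated the morning after it ended. The labels do not give the promoter of the human genes, the age of the mice or any batch.

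Immediate early genes are transcribed within minutes of a stimulus, before any new protein is made. Kinase signals from growth factors, stress, calcium or cyclic AMP act on factors already bound at their promoters, such as serum response factor and CREB, and the messages are short-lived. Fos and Jun proteins pair to form AP-1, Egr1 and the NR4A receptors bind DNA on their own sites, and Dusp1 removes phosphate from the MAP kinases that switch the others on. In lung these genes are known to respond to inhaled irritants and to mechanical stretch. The set is not one of transcription factors alone, since Dusp1 encodes a phosphatase and the molecular role of Ier2 is less well defined.

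Promoter sequences are shown for the 3 members whose level changed with styrene, Nr4a3, Dusp1 and Jun, and for Fos, against which the other members were compared between animals. Each run is the 250 bases before the annotated gene start, 5′ to 3′ on the gene's strand, from RefSeq on GRCm38.p6. Capitals mark matches to TGACG on either strand, the core of the site bound by CREB and ATF proteins. The Nr4a3 run lies at chr4:48045055-48045304, plus strand, that of Dusp1 at chr17:26508473-26508722, minus strand, that of Jun at chr4:95052223-95052472, minus strand, and that of Fos at chr12:85473640-85473889, plus strand.
Nr4a3: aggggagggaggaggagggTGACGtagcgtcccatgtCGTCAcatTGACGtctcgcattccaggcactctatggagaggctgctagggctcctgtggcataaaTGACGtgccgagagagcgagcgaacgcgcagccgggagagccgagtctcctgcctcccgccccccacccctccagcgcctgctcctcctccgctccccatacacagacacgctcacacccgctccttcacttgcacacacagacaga
Dusp1: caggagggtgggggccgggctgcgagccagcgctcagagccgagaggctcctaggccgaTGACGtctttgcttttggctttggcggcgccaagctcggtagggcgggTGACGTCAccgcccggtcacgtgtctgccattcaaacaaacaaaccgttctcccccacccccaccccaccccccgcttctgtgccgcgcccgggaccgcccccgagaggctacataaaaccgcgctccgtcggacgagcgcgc
Jun: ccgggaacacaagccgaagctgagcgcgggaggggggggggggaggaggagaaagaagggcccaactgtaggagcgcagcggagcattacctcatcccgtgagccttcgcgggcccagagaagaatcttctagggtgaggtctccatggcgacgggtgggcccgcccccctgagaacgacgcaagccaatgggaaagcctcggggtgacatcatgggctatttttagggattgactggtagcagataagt
Fos: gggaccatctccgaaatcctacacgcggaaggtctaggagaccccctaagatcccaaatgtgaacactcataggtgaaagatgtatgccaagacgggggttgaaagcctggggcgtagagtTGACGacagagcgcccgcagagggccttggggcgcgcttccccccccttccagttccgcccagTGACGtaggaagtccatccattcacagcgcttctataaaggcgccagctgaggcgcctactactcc

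Of the 10 members, 8 were scanned from 250 bases before to 50 bases after the start, all but Egr1 and Ier2. TGACG, on either strand, occurred in 7 of the 8 windows, all but that of Jun, against 20.8% of all 32851 promoter windows of this length. Nr4a3 and Nr4a1 held 4 matches each, Dusp1 held 3, Fos 2, and Fosb, Junb and Atf3 1 each. The full palindrome TGACGTCA was found in Dusp1 only, at positions -143 to -136, where it overlaps TGACG matches on both strands, and 1.79% of all windows hold it. The Jun window held TGACATCA at -45 to -38, a variant searched for after the sequence had been read and present on either strand in 3.62% of windows. TATAAA was found in Fos at -33 to -28, and in Junb at positions 1 to 6, past the start, against 13.6% of windows. CACGTG, the E-box bound by clock factors, was found in Dusp1 at -126 to -121, against 7.15%. TGTTCT, part of the glucocorticoid receptor site, and the CArG box of serum response factor had no match in the 8 windows, against 19.0% and 1.63% of all windows. Stretches farther than 250 bases before the start were not searched, nor were Egr1 and Ier2. The absence of a match in these windows does not show that the genes lack such a site. Nr4a1 and Fos hold the same TGACG letters as Nr4a3 and Dusp1, and neither passed the test in any exposure comparison described below. Whether such matches go with the styrene differences was not tested. These matches describe the letters in the windows and not binding.

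Array medians lay between 4.42 and 4.86 log2, the highest correlation between any 2 arrays was 0.997, and no pair of arrays was identical. Lung markers were bright in every animal, with surfactant protein Sftpc at a mean of 13.83, Ager of alveolar type 1 cells at 13.53 and Scgb1a1 of club cells at 13.77 log2, whereas liver Alb averaged 4.20. The Cyp2f2 probe set lay between 11.53 and 12.28 log2 in the 30 KO mice, between 11.58 and 12.13 in the 30 TG mice, and between 12.73 and 13.39 in the 30 WT mice, so strains lacking the gene did not overlap with WT although signal stayed well above the array medians. Limma gave 4 arrays a weight below 0.25, namely KO animal 3 at 0 ppm and TG animal 5 at 0 ppm, WT animal 3 at 120 ppm, all at 1 week, and KO animal 1 at 40 ppm and 4 weeks.

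Values below are log2 expression, and a difference of 1 is a 2-fold change. Differences were tested with limma across all genes, an adjusted p under 0.05 passed, and n was 5 animals per group unless stated. Counts of exposed lungs below every control describe these animals, and the share of all genes with such separation was not computed. In whole lung, fewer cells of a type and less RNA per cell cannot be told apart.

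In wild-type mice 3 members fell with styrene and 0 rose. They were Nr4a3, a nuclear receptor without a known natural ligand (also called NOR-1), Dusp1 and Jun, which passed at 1 dose and time. At 1 week and 40 ppm, 2 of the 10 fell, where 0.854% of all genes were called lower and 4.67% were called in either direction. At 1 week and 120 ppm, 3 of the 10 fell, against 2.85% of all genes called lower and 6.79% either way. At 4 weeks Nr4a3 was the member that passed, 1 of the 10 at 40 ppm, where 0.0643% of genes were lower and 0.152% changed, and 1 of the 10 at 120 ppm, where 0.14% were lower and 0.439% changed. The same 5 control lungs serve both doses at a given week, so these comparisons are not independent of each other. At an unadjusted p under 0.05 the share of all genes, in either direction, was 16.3% at 40 ppm and 19.9% at 120 ppm at 1 week, and 4.73% and 5.93% at 4 weeks.

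Nr4a3 at 1 week read 6.37, 7.37, 7.17, 6.96 and 6.77 log2 in the WT mice at 0 ppm. At 40 ppm the 5 values were 5.45, 5.76, 5.01, 5.60 and 5.02. At 120 ppm they were 5.44, 4.93, 5.21, 5.94 and 4.46. Every exposed lung was below every control lung at both doses. The mean was 5.37 ± 0.34 at 40 ppm, against 6.93 ± 0.38 at 0 ppm (SD), a difference of -1.56 (SE 0.31, limma adjusted p = 0.000327), or 2.95-fold lower. At 120 ppm the mean was 5.20 ± 0.56, a difference of -1.73 from the same controls (SE 0.31, limma adjusted p = 5e-05), or 3.32-fold lower.

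At 4 weeks the WT controls read 7.62, 8.46, 7.31, 6.50 and 6.93 log2 for Nr4a3, a wider spread than at 1 week. The 40 ppm lungs read 6.69, 6.23, 6.08, 5.58 and 5.45, and the 120 ppm lungs read 6.00, 6.13, 6.35, 5.62 and 5.79. At 40 ppm 4 of 5 lungs were below every control, and at 120 ppm all 5 were. The differences were -1.36 at 40 ppm (SE 0.31, limma adjusted p = 0.0307) and -1.39 at 120 ppm (SE 0.31, limma adjusted p = 0.0102). The call at 40 ppm was lost when control animal 1, 2 or 3 or exposed animal 3, 4 or 5 was left out, with adjusted p between 0.0655 and 0.366. The call at 120 ppm was lost without control animal 2 (-1.11, adjusted p = 0.157) or exposed animal 4 (-1.30, adjusted p = 0.061), and fits on the compared arrays alone gave adjusted p of 0.184 and 0.0597.

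The Nr4a3 result rests on 1 of its 3 probe sets. Probe set 1438796_PM_at averaged 6.64 log2 over the 90 arrays, whereas 1421080_PM_at averaged 3.66 and 1421079_PM_at averaged 2.44, both below the lowest array median. The 2 dim probe sets differed from control by between -0.16 and 0.20 log2 in the 4 WT comparisons, and neither passed when adjusted over 45037 probe sets (lowest adjusted p = 0.502). Their deviations from group means correlated with those of the bright probe set at r = -0.01 and 0.09 over 90 animals. The median over the 3 probe sets is 1421080_PM_at in every lung, so it is no separate check. With it in place of the brightest, the difference was 0.20 at 40 ppm and 0.09 at 120 ppm at 1 week, and 0.10 and -0.16 at 4 weeks. The fall described for Nr4a3 is thus that of 1438796_PM_at. The tables used here do not give where in the transcript each probe set lies.

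**Figure D1:**
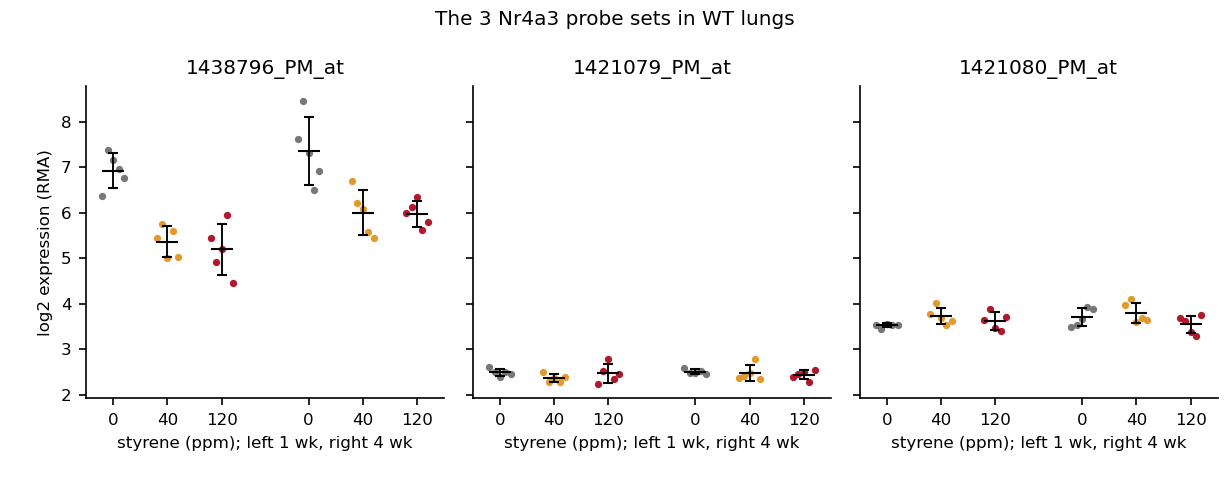
Log2 expression of the 3 Nr4a3 probe sets in WT lungs, with styrene dose on the horizontal axis at 1 and 4 weeks. Points are animals in order of their number from left to right, and bars are the mean and SD of 5 animals. The bright probe set is lower in exposed groups at both times, and the dim ones stay between 2.24 and 4.10 log2 throughout.

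Dusp1, the phosphatase that limits p38, JNK and ERK signalling, fell at 1 week. It read 12.25, 12.23, 11.58, 11.87 and 11.83 log2 in WT mice at 0 ppm. The 40 ppm lungs read 11.80, 11.62, 11.18, 11.16 and 10.43, of which 3 were below every control. The 120 ppm lungs read 11.21, 11.25, 10.72, 11.32 and 10.50, and all 5 were below every control. The difference was -0.72 at 40 ppm (SE 0.19, limma adjusted p = 0.0135) and -0.95 at 120 ppm (SE 0.19, limma adjusted p = 0.000372). The call at 40 ppm was lost without control animal 2 (-0.64, adjusted p = 0.0721) or exposed animal 5 (-0.51, adjusted p = 0.133), and with array weights, which gave a smaller difference of -0.44 (adjusted p = 0.0831). Fits on the compared arrays alone gave adjusted p of 0.0877 at 40 ppm and 0.073 at 120 ppm. At 4 weeks Dusp1 did not pass, with -0.57 at 40 ppm (adjusted p = 0.582) and -0.68 at 120 ppm (adjusted p = 0.113). All 5 lungs at 120 ppm, between 11.14 and 11.48, were below the 5 controls, between 11.59 and 12.72. How many of all genes separate in this way was not counted, so this adds nothing to the test. Of 7 other MAP kinase phosphatases measured, limma called 0 in each of the 4 WT comparisons, with 1, 2, 1 and 1 at an unadjusted p under 0.05. The share of all genes at that level was 16.3%, 19.9%, 4.73% and 5.93% in the same order.

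Jun, the AP-1 subunit that can pair with itself or with Fos proteins, fell at 120 ppm and 1 week. Its values were 9.67, 9.81, 9.49, 9.77 and 9.16 log2 at 120 ppm, against 10.34, 10.48, 10.11, 9.70 and 10.09 at 0 ppm. Of the 5 exposed lungs 3 were below every control, and control animal 4 lay within the exposed range. The difference was -0.57 (SE 0.16, limma adjusted p = 0.0146). It was lost without control animal 2 (-0.48, adjusted p = 0.0912) or exposed animal 5 (-0.46, adjusted p = 0.11), with array weights (-0.47, adjusted p = 0.0726), and in a fit on the compared arrays alone (adjusted p = 0.214). The second Jun probe set, 1448694_PM_at, gave -0.48 (adjusted p = 0.0058 over all probe sets), and its deviations followed those of the first at r = 0.86 over 90 animals. At 40 ppm and 1 week Jun differed by -0.28 (adjusted p = 0.388, with -0.34 and 0.111 for the second probe set), and at 4 weeks by -0.14 and -0.26. Whether the 4 Jun differences differ from each other was not tested.

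**Figure D2:**
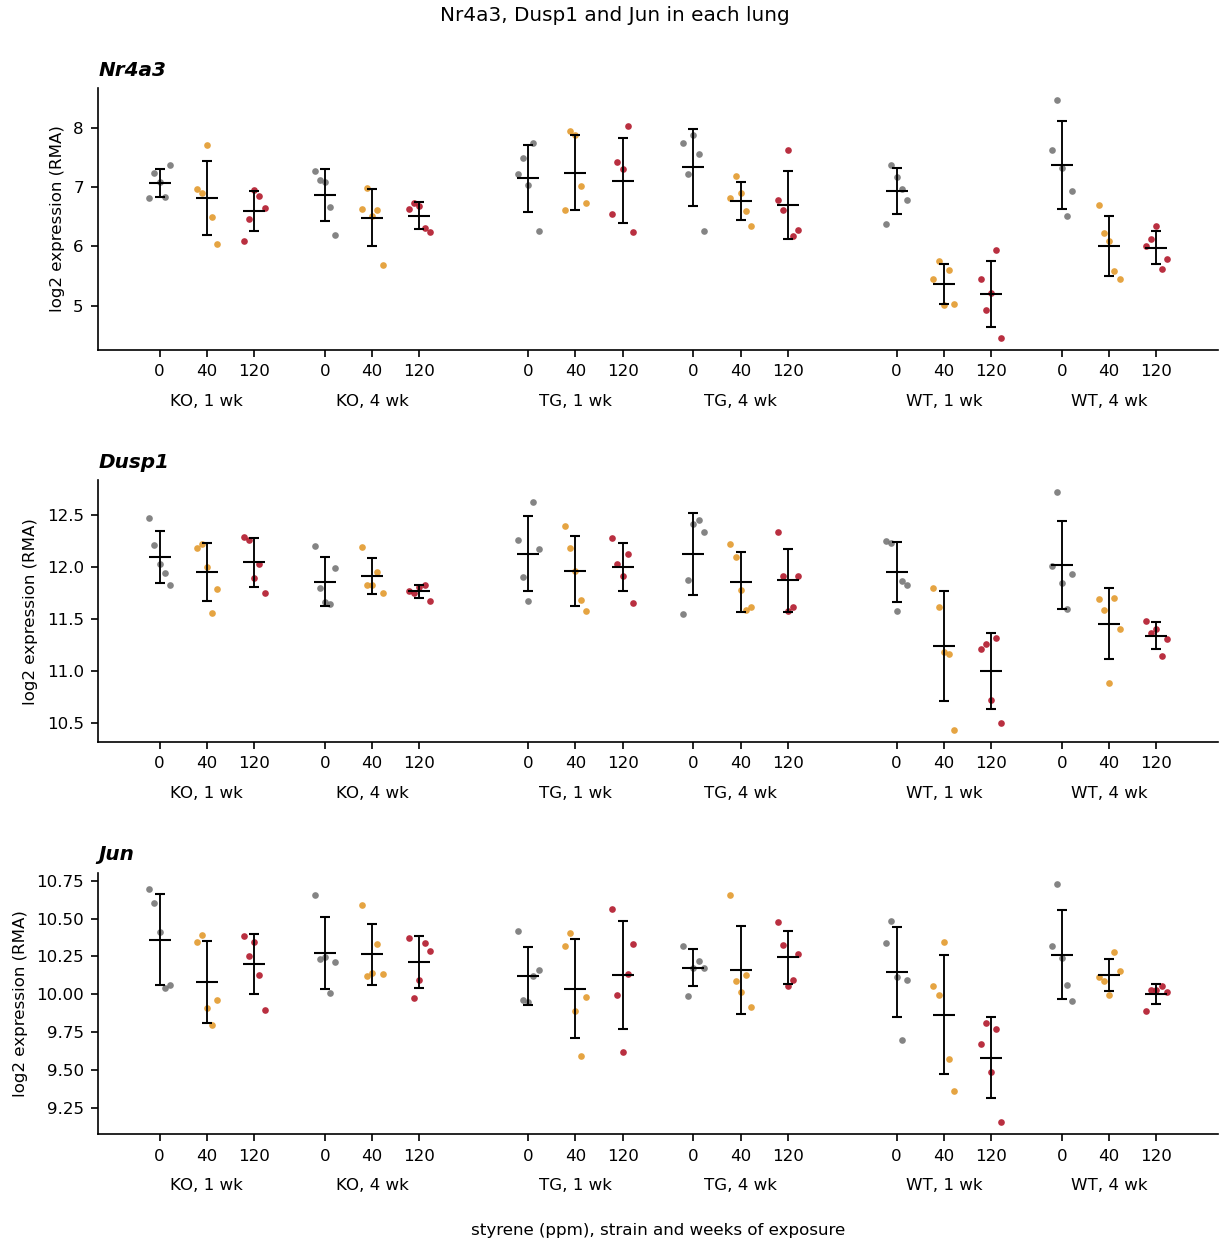
Log2 expression of Nr4a3, Dusp1 and Jun in all 90 lungs, by strain, week and styrene dose. Points are animals in order of their number from left to right, and bars are the mean and SD of 5 animals. Exposed WT lungs lie low for Nr4a3 and Dusp1, and the KO and TG groups overlap with their controls.

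The other AP-1 members showed no passing difference in WT mice. Fos, the founding AP-1 partner of Jun, read 9.37, 8.90, 8.58, 9.73 and 8.05 log2 at 0 ppm, 8.97, 8.54, 8.65, 8.39 and 8.19 at 40 ppm, and 8.81, 8.70, 7.62, 8.64 and 8.39 at 120 ppm, all at 1 week. These groups overlap, and the differences were -0.38 (95% interval -0.97 to 0.22) and -0.49 (-1.09 to 0.11). At 4 weeks they were -0.58 (-1.18 to 0.02) and -0.70 (-1.29 to -0.10, adjusted p = 0.708). Fosb, a Fos relative, was dim, with group means between 2.92 and 3.74 log2, and its highest reading, 5.49, came from WT control animal 1 at 4 weeks. Its 4-week differences were -0.68 (adjusted p = 0.582) and -0.76 (adjusted p = 0.178), and the second ran from -0.95 without control animal 5 (adjusted p = 0.042) to -0.32 without control animal 1 (adjusted p = 0.935). Junb, a Jun relative that often counters Jun, differed by 0.16 and 0.05 at 1 week and by -0.25 (95% interval -0.59 to 0.09) and -0.02 (-0.36 to 0.32) at 4 weeks.

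Egr1, a zinc-finger activator of growth and clotting genes, differed by -0.21 and -0.55 at 1 week and by -0.87 and -0.83 at 4 weeks, with adjusted p of 0.433 or more. At 4 weeks it read 10.27, 9.42, 8.05, 7.79 and 7.92 at 0 ppm, 8.08, 7.41, 7.86, 7.80 and 7.97 at 40 ppm, and 8.14, 7.53, 7.93, 7.90 and 7.80 at 120 ppm. Control animals 1 and 2 were high and the other 3 lay among the exposed animals. Nr4a1 (Nur77), the NR4A relative of Nr4a3, was likewise high in control animals 1 and 2, with 10.06, 9.96, 7.72, 7.33 and 7.21 in those controls, and its highest exposed value was 8.21. Its 4-week differences were -1.05 at 40 ppm (adjusted p = 0.995) and -0.97 at 120 ppm (adjusted p = 0.882). Atf3, a stress-induced repressor of the ATF family, read 7.97, 8.50, 7.35, 6.05 and 6.27 in the same controls, and differed by -0.74 and -0.90, the second with an adjusted p of 0.739 and a value of -0.58 without control animal 2 and -1.19 without control animal 4. Ier2 differed by between -0.27 and -0.08 over the 4 WT comparisons.

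The 4-week WT control group was thus wide for several members, with SDs of 1.43 for Nr4a1, 1.10 for Egr1, 1.06 for Atf3 and 1.04 for Fosb. At an unadjusted p under 0.05, 5 members were lower at 40 ppm and 6 at 120 ppm at 4 weeks, where 4.73% and 5.93% of all genes reached that level in either direction. All 10 members had a difference below 0 at both doses at 4 weeks, and 9 of 10 did at both doses at 1 week. The median over members was -0.25 and -0.52 at 1 week and -0.63 and -0.73 at 4 weeks, and the median over all genes was 0.03, 0.00, 0.01 and 0.01 in the same order of doses and weeks. Members measured in the same lungs move together, as given below, so this count does not weigh 10 separate observations.

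In KO and TG mice 0 of 10 members passed in any of the 8 exposure comparisons. The share of all genes called was 0% for KO at 40 ppm and at 120 ppm at 1 week and at 40 ppm at 4 weeks, and 0.0234% at 120 ppm and 4 weeks. For TG it was 0% at 40 ppm at both times, 0.0468% at 120 ppm and 1 week and 0.0117% at 120 ppm and 4 weeks, so a count of 0 members is what most of the array showed too. At an unadjusted p under 0.05, limma gave Atf3 lower in KO at 40 ppm and 1 week, where 3.57% of all genes reached that level, and Fos and Nr4a3 lower in TG at 120 ppm and 4 weeks, where 5.61% did. Of the 40 differences per strain, 37 were below 0 in KO, 30 in TG and 38 in WT, and they ran from -0.88 to 0.07 in KO, from -0.64 to 0.19 in TG and from -1.73 to 0.16 in WT. Of all genes, between 45.3% and 55.3% were below 0 in the KO comparisons, between 39.1% and 64.2% in TG and between 42.8% and 49.5% in WT. The members move together and both doses of a strain and week share the same controls, so the 40 differences are not separate observations.

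Nr4a3 at 1 week in KO mice read 6.81, 7.23, 7.08, 6.84 and 7.37 log2 at 0 ppm, 6.96, 6.89, 7.72, 6.49 and 6.04 at 40 ppm, and 6.09, 6.47, 6.94, 6.85 and 6.65 at 120 ppm. In TG mice it read 7.22, 7.48, 7.03, 7.73 and 6.26 at 0 ppm, 6.62, 7.94, 7.88, 7.01 and 6.73 at 40 ppm, and 6.54, 7.42, 7.30, 8.03 and 6.24 at 120 ppm. Exposed and control lungs overlapped in both strains. The differences were -0.25 and -0.47 in KO mice and 0.09 and -0.04 in TG mice. Over all 8 KO and TG comparisons Nr4a3 ranged from -0.64 to 0.09, Dusp1 from -0.27 to 0.05, Jun from -0.28 to 0.07 and Egr1 from -0.16 to 0.04.

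Whether the exposure difference itself differed between strains was tested as an interaction. For TG against WT at 1 week, 1 of 10 members passed at each dose, Nr4a3, where 1.53% of genes passed at 40 ppm, with 0.14% higher in TG, and 4.59% at 120 ppm, with 1.17% higher in TG. The Nr4a3 difference was higher in TG than in WT by 1.65 at 40 ppm (SE 0.44, limma adjusted p = 0.0294) and by 1.69 at 120 ppm (SE 0.44, limma adjusted p = 0.0132). The call at 40 ppm was lost when any 1 of 7 animals was left out (adjusted p 0.0563 to 0.127), and that at 120 ppm without TG control animal 5 (1.47, adjusted p = 0.0659), whose array had a weight of 0.155, or on the compared arrays alone (adjusted p = 0.169). With the median over probe sets these differences turned to -0.45 and -0.24. For KO against WT 0 of 10 passed at 1 week, against 1.25% of genes at 40 ppm and 2.37% at 120 ppm, and limma gave 2 members higher at each dose at an unadjusted p under 0.05, where 10.5% and 15.3% of all genes reached that level in either direction. Nr4a3 differed by 1.31 (95% interval 0.44 to 2.19, adjusted p = 0.138) and 1.26 (0.39 to 2.14, adjusted p = 0.111). Dusp1 at 120 ppm and 1 week differed by 0.90 for KO (adjusted p = 0.0549) and by 0.82 for TG (adjusted p = 0.0604), and each passed when 1 of 4 particular animals was left out. At 4 weeks 0 of 10 members passed in either strain, against 0.0234% and 0.0175% of genes for KO and 0.0117% and 0.0292% for TG, with 3 members higher at each dose for KO and 1 for TG at an unadjusted p under 0.05. The share of all genes at that level was 2.5% and 2.48% for KO and 5.71% and 4.08% for TG, so the count for TG is near that of the array. All these interactions share the WT animals.

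**Figure D3:**
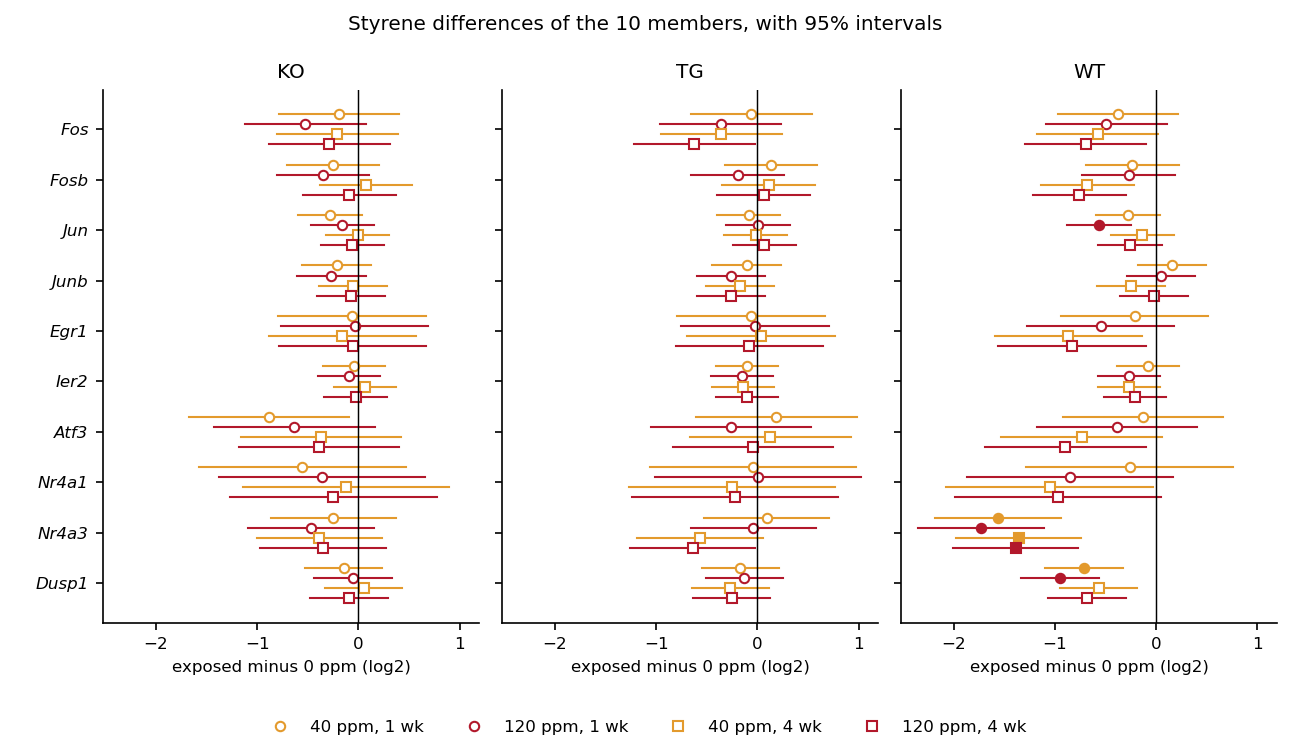
Difference in log2 expression between exposed and 0 ppm lungs of the 10 members, with KO, TG and WT in separate panels. Circles are 1 week and squares 4 weeks, lines are 95% intervals of the limma fit, and filled symbols passed at an adjusted p under 0.05. The 7 filled symbols are all in WT and all below 0.

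Without styrene no member passed between strains. With 10 animals per strain, 0 of 10 passed for KO against WT (0.275% of genes called), for TG against WT (0.287%) or for TG against KO (0.135%). At an unadjusted p under 0.05 limma gave Atf3 lower in TG than in KO (-0.59, 95% interval -1.15 to -0.03, adjusted p = 0.917), where 5.31% of all genes reached that level, and no member in the other 2 strain comparisons. Nr4a3 differed by -0.18 (-0.62 to 0.26) for KO against WT and by 0.09 (-0.35 to 0.53) for TG against WT, and Dusp1 by -0.01 (-0.28 to 0.26) and 0.14 (-0.13 to 0.41). Between 4 and 1 weeks at 0 ppm 0 of 10 passed in KO (0.538% of genes called), TG (0.304%) or WT (0.638%), and only Fosb in WT was below an unadjusted p of 0.05 (0.55, adjusted p = 0.326), where 11.7% of all genes were.

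Of 34 other immediate early genes listed by name, 31 were found under the listed symbol. Cyr61, annotated here under its newer symbol Ccn1, was missed in this way and is not in the counts below. Of the 31, 7 fell and 0 rose in WT mice at 120 ppm and 1 week. In that comparison 2.85% of all genes were called lower and 6.79% either way. Nr4a2, the remaining NR4A receptor, fell by 0.90 (SE 0.24, limma adjusted p = 0.0108), with 4 of 5 exposed lungs below every control. Klf2, a transcription factor kept high by blood flow in endothelium, differed by -0.71 (limma adjusted p = 0.0416), Btg2, an antiproliferative gene, by -0.62 (0.000172) and Errfi1, a feedback inhibitor of the EGF receptor, by -0.54 (0.0308). The median of the 31 was -0.19, and that of all genes 0.00. At 40 ppm and 1 week Btg2 was the 1 that passed (-0.50, limma adjusted p = 0.00343), and at 4 weeks limma called 0 of 31 at either dose, with 3 and 7 lower at an unadjusted p under 0.05. The count at 120 ppm ranged from 1 to 8 as single animals were left out, with 1 without control animal 2. On the compared arrays alone the count at 120 ppm was 0. In KO and TG mice limma called 0 of 31 in each exposure comparison, and 10 of 124 KO and 6 of 124 TG differences had an unadjusted p under 0.05. Between 2.45% and 5.15% of all genes did in the KO comparisons and between 4.43% and 9.26% in TG, so the TG count is no more than that of the array.

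Among 12 further AP-1 family members and partners, Mafk (-0.45) and Atf4 (-0.40) fell at 120 ppm and 1 week in WT mice, with none passing in the other 3 WT comparisons, where 4, 2 and 2 had an unadjusted p under 0.05 by limma. Of 16 measured genes of the upstream serum response and MAP kinase pathway, Map3k1 (-0.33) and Mapk9, which encodes a JNK (-0.27), fell in that comparison and none passed in the others, where 1, 0 and 0 had an unadjusted p under 0.05 by limma. Known AP-1 and Egr1 target genes moved both ways at 1 week. Mmp3, a matrix protease, fell by 0.98 at 40 ppm and by 0.62 at 120 ppm, and Ccnd1, which encodes cyclin D1, rose by 0.38 and 0.37. With Il6 (0.79) at 40 ppm these were the passing ones of 18 measured, and at 4 weeks none passed, with 2 and 4 at an unadjusted p under 0.05 by limma. Of all genes, 4.67% passed at 40 ppm and 6.79% at 120 ppm at 1 week, with 0.854% and 2.85% lower. At an unadjusted p under 0.05 by limma the shares were 16.3% and 19.9% at 1 week and 4.73% and 5.93% at 4 weeks.

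Other gene groups moved in the same WT comparisons. Of 16 measured clock genes, 6 rose and 3 fell at 40 ppm and 8 rose and 4 fell at 120 ppm at 1 week, and 3 rose and 3 fell and then 6 rose and 3 fell at 4 weeks. The shares of all genes called were 4.67%, 6.79%, 0.152% and 0.439% in the same order. Dbp, an output gene of the clock, rose by 3.36 and 3.42 at 1 week and by 2.73 and 3.33 at 4 weeks, and Arntl (Bmal1), its activator, fell by 2.28, 2.43, 1.79 and 2.57. Dbp also passed in KO mice at 120 ppm and 4 weeks (2.44) and in TG mice at 120 ppm at 1 week (1.98) and 4 weeks (2.12), where 0 members passed. Of 11 glucocorticoid-responsive genes measured, Mt1 rose (0.74) and Cdkn1a (-0.95), Errfi1 (-0.54) and Sgk1 (-0.33) fell at 120 ppm and 1 week, whereas Fkbp5 differed by 0.30 (adjusted p = 0.785). Among cell markers at 120 ppm and 1 week, macrophage Marco rose by 0.98 (1 of 3 markers), endothelial Cldn5 fell by 0.50 (1 of 5 lung markers) and platelet Ppbp fell by 0.72 (1 of 3), and no marker of red cells, neutrophils, muscle, lymphocytes, liver, thymus or ciliated cells passed in the 4 WT comparisons. The part of these genes and cells in the members' differences was not tested.

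Within groups the members varied more than most genes. The SD between animals of 1 group was 0.83 log2 for Nr4a1, 0.65 for Atf3, 0.59 for Egr1, 0.51 for Nr4a3, 0.49 for Fos, 0.37 for Fosb, 0.31 for Dusp1, 0.27 for Junb and 0.25 for Jun and Ier2, against 0.19 for the median gene. Nr4a1 exceeded 99.7% of genes, and Ier2, lowest of the 10, exceeded 77.5%. Spread within groups made up 35.1% of the variance of Nr4a3 and 42.9% of that of Dusp1, and between 63.0% and 83.2% of that of the other 8, where the median gene had 73.5%.

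Animals high in Fos for their group were high in most other members. Over 90 animals, with group means removed, Egr1 followed Fos at Pearson r = 0.82 (Spearman rho = 0.80), higher than any other of 17096 genes. Nr4a1 followed at 0.67, Dusp1 at 0.63, Ier2 at 0.53, Junb at 0.52, Fosb at 0.51 and Atf3 at 0.44, with Spearman rho of 0.65, 0.68, 0.57, 0.50, 0.50 and 0.44. These 7 passed a two-sided permutation test within groups (100000 resamples, adjusted over 17096 genes, where 2.11% passed), with permutation p between 1e-05, the smallest that could be reached, and 0.00021 for r, and between 1e-05 and 0.00016 for rho. Jun gave r = 0.36 (permutation p = 0.0015, adjusted p = 0.058, rho = 0.40 with permutation p = 0.00047). Nr4a3 gave r = -0.01 (permutation p = 0.97, rho = -0.03 with permutation p = 0.8). Without the 2 animals farthest from the median of Fos, r was 0.79 for Egr1, 0.63 for Nr4a1, 0.62 for Dusp1, 0.32 for Jun and 0.003 for Nr4a3. The labels number the animals of each group from 1 to 5, and with the mean of each number removed as well r was 0.81 for Egr1, 0.68 for Nr4a1, 0.57 for Dusp1, 0.53 for Junb, 0.50 for Ier2, 0.40 for Fosb, 0.35 for Atf3, 0.23 for Jun and -0.02 for Nr4a3.

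The relation with Fos held within each strain for Egr1, at 0.81 in KO, 0.81 in TG and 0.85 in WT, and for Nr4a1, at 0.52, 0.71 and 0.75. For Atf3 it was 0.30 in KO, 0.29 in TG and 0.74 in WT, and for Nr4a3 it changed sign, at -0.54 in KO, 0.02 in TG and 0.36 in WT, differences between strains that were not tested. Exposed groups gave 0.73 for Egr1 and groups at 0 ppm gave 0.90. The 10 other genes most like Fos were Ccn1 (0.63), Btg2 (0.63), Bcl2l14, Kcne4, Cotl1, C2cd4b, Tspyl4, Klf2, Sgk1 and Spata13 (0.52). Of the 31 other immediate early genes 8 passed, and Ccn1, listed under its older symbol Cyr61, is not among the 31. Of 9 measured heat shock genes 4 passed with r below 0.

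Among all 45 pairs of members r ran from -0.01 to 0.82 with a median of 0.49, and 22 pairs were above 0.5. The closest pairs after Fos and Egr1 were Egr1 and Nr4a1 (0.81), Junb and Ier2 (0.79), Atf3 and Nr4a1 (0.79), and Nr4a1 and Dusp1 (0.78). Nr4a3 had 0.21 with its relative Nr4a1, and its highest r with any member was 0.29. Dusp1 and Jun, which fell with styrene, were tied to each other at 0.66 and to Nr4a3 at 0.27 and 0.10. These pair values are descriptions, since all genes were read from the same arrays.

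**Figure D4:**
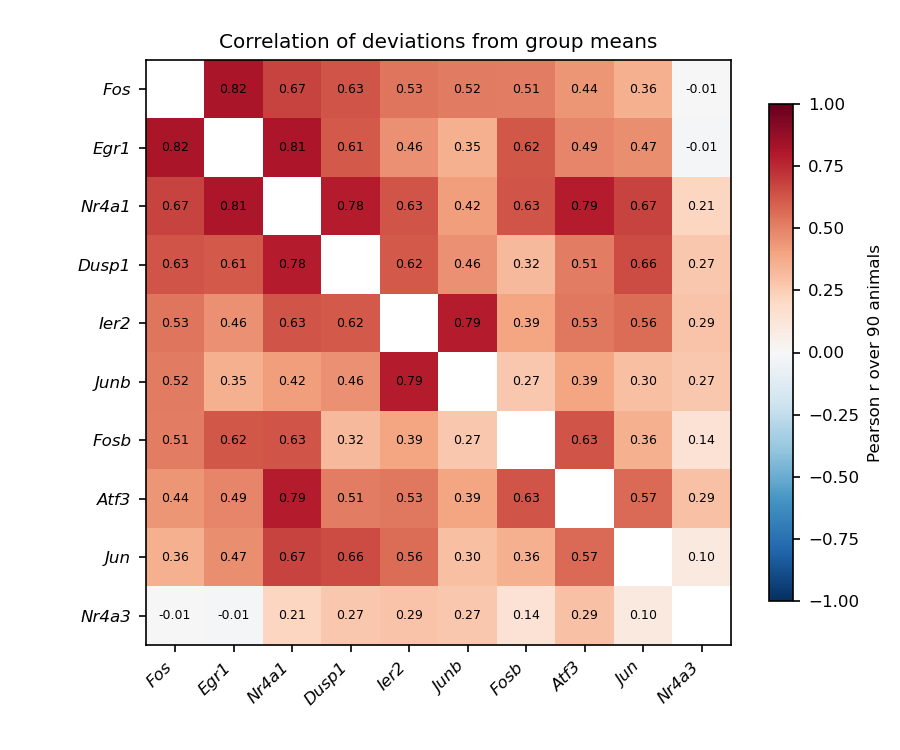
Pearson r between members over 90 animals after removal of the 18 group means, with the diagonal left blank. Most cells lie between 0.3 and 0.8, and the Nr4a3 row between -0.01 and 0.29.

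The same animals were compared for Fkbp5, a glucocorticoid-induced co-chaperone of the glucocorticoid receptor, chosen for this after its values had been seen. With animal number not held fixed, 8 of the 10 members were lower where Fkbp5 was higher for its group (two-sided permutation test, 100000 resamples, adjusted over 17096 genes), against 4.83% of genes in that direction. Nr4a1 had r = -0.78 (rho = -0.74), the lowest of all 17096 genes, and Atf3 had -0.73 (rho = -0.74), with 1 gene lower. Egr1 had -0.59, Jun -0.56, Dusp1 -0.45, Fosb -0.44, Fos -0.35 and Ier2 -0.31, and Junb (-0.12, permutation p = 0.3) and Nr4a3 (-0.02, permutation p = 0.88) did not pass. Each of the 8 had a permutation p between 1e-05, the smallest possible, and 0.0047 for Pearson, and rho between -0.74 and -0.29 with permutation p of 0.014 or less. Within strains Nr4a1 had -0.83 in KO, -0.76 in TG and -0.81 in WT, and without the 2 animals farthest from the median of Fkbp5 it had -0.77. Fkbp5 was lowest in the animal numbered 1 in all 18 groups, and the permutations exchanged animals within groups without regard to number. With the mean of each animal number removed as well, r for the 8 was closer to 0, at -0.43 for Nr4a1, -0.37 for Egr1, -0.22 for Jun, -0.21 for Atf3, -0.14 for Fos, -0.09 for Dusp1, -0.06 for Ier2 and 0.06 for Fosb, values given with no test. In limma Fkbp5 itself passed in 0 of 12 exposure comparisons, 0 also at an unadjusted p under 0.05, with differences from -0.58 to 0.85.

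**Figure D5:**
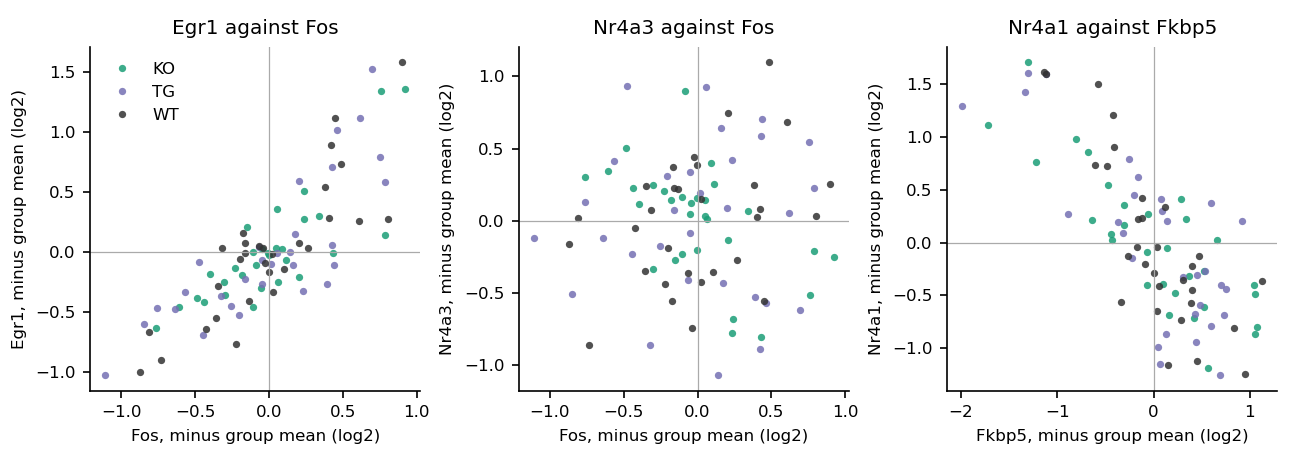
Deviation from the group mean, in log2, of Egr1 against Fos, Nr4a3 against Fos, and Nr4a1 against Fkbp5, with 1 point per animal for 90 animals coloured by strain. The first cloud rises (r = 0.82), the second has no pooled slope (r = -0.01, with -0.54 in KO, 0.02 in TG and 0.36 in WT), and the third falls (r = -0.78, and -0.43 with animal number removed).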

How the data were processed

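Whole-lung RNA from 90 mice was hybridised to HT MG-430 PM arrays, 1 per animal, and the number of arrays limits the precision. The deposited values are log2 expression, and per the submitters' processing notes the authors used RMA and Partek, whose order, settings and versions the notes as given here do not state. The table had no missing value. Of 45141 probe sets, 104 controls were left out, 28898 carried a single symbol, and the brightest probe set per symbol gave 17097 genes. Computations used R 4.3.3 with limma 3.58.1 and Python 3.11.15 with numpy 2.4.6, scipy 1.17.1, pandas 2.3.3 and matplotlib 3.10.9. Limma was fitted to 18 group means over all 90 arrays (72 residual degrees of freedom), 26 comparisons were drawn from that fit, and p-values were adjusted by Benjamini-Hochberg over 17097 genes within each. The fit was tested on simulated data. Groups came from the labels. They give no litter or batch, so p-values measure the spread between these animals. The members are all named, together with up to 4 genes per listed group and comparison, by size among those that passed, any gene of a list of under 6, the 10 genes most like Fos, and Cyp2f2, Dbp, Arntl, Per1, Fkbp5, Hbb-bt and Hspa1a in any comparison. The members and lists were chosen with earlier results of these data known. Alternatives were array weights, low-weight arrays left out, dim genes left out, the median over probe sets, the compared arrays alone, quantile normalization again, a block for animal number, and leaving out each animal of a comparison in turn. Animals sharing a number in exposed and control groups did not all deviate together: 21 of 60 pairs had r over 0.1, and r ran from -0.609 to 0.471.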

Additional observations from a re-analysis of the deposited data

Results flagged for a closer look

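Within groups of 5 animals, 180 sets of values were searched for an animal far from the rest, with Dixon's critical value of 0.71 for the gap over the range. Chance alone would flag about 1 in 20 of the 180 sets, and 10 were flagged, close to that share. Of the 10 flags, 7 were in an animal numbered 1. Among TG mice, Atf3 in animal 1 at 0 ppm and 1 week was 7.45 log2 with the nearest at 6.51, Egr1 in animal 1 at 40 ppm and 1 week was 10.25 with the nearest at 8.62, and Jun in animal 1 at 40 ppm and 4 weeks was 10.65 with the nearest at 10.13. Nr4a1 in TG mice at 4 weeks was 9.55 in animal 1 at 120 ppm with the nearest at 7.98, and lowest at 7.19 in animal 2 at 0 ppm with the nearest at 8.54. Among KO mice, Egr1 in animal 1 at 120 ppm and 1 week was 9.94 with the nearest at 8.39, Junb in animal 4 of the same group was lowest at 5.59 with the nearest at 5.96, and Ier2 in animal 3 at 0 ppm and 4 weeks was lowest at 8.63 with the nearest at 8.86. Among WT mice at 4 weeks, Atf3 in animal 1 at 40 ppm was 7.60 with the nearest at 6.44, and Jun in animal 1 at 120 ppm was lowest at 9.89 with the nearest at 10.02.

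The Nr4a3 difference between exposed and control lungs was higher in TG than in WT mice at 1 week, by 1.65 at 40 ppm (limma adjusted p = 0.0294) and by 1.69 at 120 ppm (limma adjusted p = 0.0132), by a test of the difference itself.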

How the results depend on the processing

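In WT mice the number of members called at 40 ppm and 1 week, 2 as reported, was 1 with array weights, with the median over probe sets and with the compared arrays alone. At 120 ppm and 1 week, 3 as reported, it was 1 with the compared arrays alone, 2 with array weights (without Jun) and 2 with the median over probe sets (without Nr4a3). At 4 weeks it was 0 of the reported 1 at each dose with the median over probe sets and with the compared arrays alone. For TG against WT responses at 1 week, 1 as reported at each dose, it was 0 with the median over probe sets at both doses, 0 without low-weight arrays at 40 ppm, and at 120 ppm 2 without dim genes and 0 with the compared arrays alone. For KO against WT responses at 120 ppm and 1 week, 0 as reported, it was 1 (Dusp1) after quantile normalization was applied again. With 1 animal left out the counts ran from 1 to 2 and from 2 to 3 in WT at 1 week (40 and 120 ppm), from 0 to 1 and from 0 to 2 in WT at 4 weeks, from 0 to 1 and from 0 to 2 for TG against WT at 1 week, from 0 to 2 for KO against WT at 120 ppm and 1 week, and stayed at 0 in the other comparisons. The median over the 3 Nr4a3 probe sets, which is 1421080_PM_at in every lung, gave differences of 0.199, 0.094 and 0.099 in WT (40 and 120 ppm at 1 week, 40 ppm at 4 weeks). It gave -0.329 and -0.229 for KO against WT and -0.453 and -0.242 for TG against WT (40 and 120 ppm at 1 week). The r of Nr4a3 with Fos was 0.024 without low-weight arrays and 0.003 without the 2 farthest animals. Jun at 120 ppm and 1 week, and Dusp1 at 40 ppm and 1 week, also missed the threshold with array weights (-0.47, adjusted p = 0.0726, and -0.44, adjusted p = 0.0831). The cause of these changes was not tested.

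As a replicate block, animal number gave 4 members called in WT at 120 ppm and 4 weeks in place of 1, adding Fosb (adjusted p = 0.0371), Atf3 (0.0464) and Dusp1 (0.0251). It gave 1 in place of 0 for KO against WT at 40 ppm and 1 week, 2 in place of 0 for KO and 2 in place of 1 for TG against WT at 120 ppm and 1 week, and changed no other count of members. Over all 17097 genes the block gave 97 calls in place of 75 in WT at 120 ppm and 4 weeks. For KO against WT at 1 week it gave 258 in place of 214 at 40 ppm and 475 in place of 405 at 120 ppm. For TG against WT at 120 ppm and 1 week it gave 898 in place of 784. The number follows the order of the identity numbers in the sample titles, and the labels do not say what that order stands for. Several members varied with the number in the same way across groups. In 16 of 60 pairs the exposed animal's r was higher with its same-number control than with any other control. With 5 controls per group, chance alone gives about 1 in 5 such pairs.

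Over all genes, 1161 were called in WT at 120 ppm and 1 week, 2800 without low-weight arrays and 36 with the compared arrays alone. At 40 ppm and 1 week 799 were called, 2446 with array weights and 1385 without low-weight arrays. At 4 weeks 75 were called at 120 ppm, 209 with array weights and 118 without low-weight arrays, and 26 at 40 ppm, with 87, 41 and, without dim genes, 12. Fosb was dim in every group, so its differences are limited by signal over background.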

Other observations

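The labels number the animals of each group from 1 to 5, in ascending order of the identity numbers in the sample titles. They do not say what that order stands for. The values below were examined after the data had been seen. Nr4a1 was highest in animal 1 in 16 of 18 groups, with a mean deviation of 1.04 log2 from the group mean, and Atf3 was highest in animal 1 in 15 (0.79). Egr1 was highest in animal 1 in 13 groups (0.61), Fosb and Dusp1 in 11 each, Fos and Jun in 10 each, Ier2 in 7, Junb in 6 and Nr4a3 in 2. Fkbp5 was lowest in animal 1 in all 18 groups, with a mean deviation of -0.97. With the number added to the limma fit, 7 of the 10 members passed, against 7.09% of all genes, with adjusted p of 2.48e-13 for Atf3, 1.95e-10 for Nr4a1 and 0.000148 for Nr4a3. Nr4a3 had another pattern, with a mean deviation of 0.01 in animal 1 and of -0.49 in animal 5. Fos (adjusted p = 0.0763), Ier2 (0.148) and Junb (0.669) did not pass. Without the 4 low-weight arrays 9 of the 10 passed. The share of all genes passing in that reduced fit was not counted, so the rise is not a result about the members. The part of the number in the exposure differences was not tested beyond the block fit above.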
